A study of Mus musculus with 12 samples.

Results

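The 10 genes described here are known for their expression in neutrophils: S100a8, S100a9, Mmp8, Csf3r, Retnlg, Elane, Mpo, Ngp, Camp and Ltf. They were chosen by name, with earlier results of these data known. Each was read from the probe set that the platform annotation pairs with that symbol alone. All 10 had exactly 1 such probe set, and they are 10 of 19938 genes measured. Expression was measured in the livers of 12 mice of the inbred C57Bl/6J strain, with 1 array per mouse. At 10 weeks of age 6 mice were given a recombinant adenovirus by vein with a scrambled short hairpin RNA (sh scramble), and 6 were given one whose hairpin targets Grb14 (sh Grb14). All livers were taken in the fed state 7 days after infection, so both groups carried virus. No liver free of virus was analysed here. Grb14 encodes an adapter protein that binds the insulin receptor and restrains its signalling. Adenovirus given by vein reaches mainly the liver, the labels name no promoter or cell type that limits the hairpin, and RNA of whole liver was measured.

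Neutrophils are short-lived phagocytes made in the bone marrow that enter tissue at sites of infection or injury. They carry ready-made granules that are filled in a fixed order as the cell matures. Azurophil granules with myeloperoxidase and elastase form first, at the promyelocyte stage. Specific granules with lactoferrin, cathelicidin and collagenase follow. The calcium-binding proteins S100A8 and S100A9 fill the cytosol, and receptors such as that for the growth factor G-CSF stand on the surface. Healthy liver holds few neutrophils, and several of these genes are also transcribed in monocytes.

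The values are log2 RMA expression values, with array medians between 7.06 and 7.17. No array stood apart: across probe sets, r was 0.990 to 0.997 for pairs of arrays within a group and 0.959 to 0.972 for pairs between groups. Probe sets are not independent replicates. Grb14 itself fell in the sh Grb14 livers, from 10.15 to 8.24 with no overlap, a change of −1.91 (SE 0.059). The groups differed very widely. Of all genes tested with limma, 65.3% passed (Benjamini-Hochberg adjusted p under 0.05), 25.8% higher and 39.5% lower in sh Grb14 livers, with a median change of −0.10. Centring each array on the median of the tested genes moved that median by −0.15, and the share of higher genes among those that passed went from 39.5% to 23.0%. Each change is the sh Grb14 mean less the sh scramble mean, in log2 units, and SE is its standard error. Levels are not comparable between genes, since each probe set has its own response. Each array came from its own mouse, and 6 arrays per group limit the precision.

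Among the 10 genes, the cytosolic, surface and secreted genes and 3 of the 4 specific granule genes were higher in sh Grb14 livers. The rise of Ltf, 1 of those 3, was only 0.31, with overlap. Neither azurophil granule gene passed the test, but the changes of Mpo and Ltf were not shown to differ (adjusted exact permutation p = 0.290). In all, 7 of 10 rose and 3 did not pass, against 25.8% of all genes that rose. In limma's test 0 fell, also at an unadjusted p under 0.05. The groups did not overlap for 6 genes, against 41.2% of all genes, and all 6 were higher, against 20.3% of all genes that were higher without overlap. These 6 genes rose at least 2-fold, which 6.37% of all genes did. Because the 10 genes were chosen with earlier results known, these counts are a description and not a test. Mpo lay under the median of its array in 6 of 6 sh scramble and 3 of 6 sh Grb14 livers. For Elane this held in 4 and 5, for Camp in 3 and 6 and for Ltf in 6 and 6. The 6 genes without overlap lay under it in 4 to 6 sh scramble livers and at most 1 sh Grb14 liver. No detection call was made, so a change near 0 can also come from a probe set with little signal. The median change over the 10 genes was 1.40. In whole liver, more cells of a type and more RNA per cell cannot be told apart, so these are changes of liver RNA and not of cell number.

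**Figure D1:**
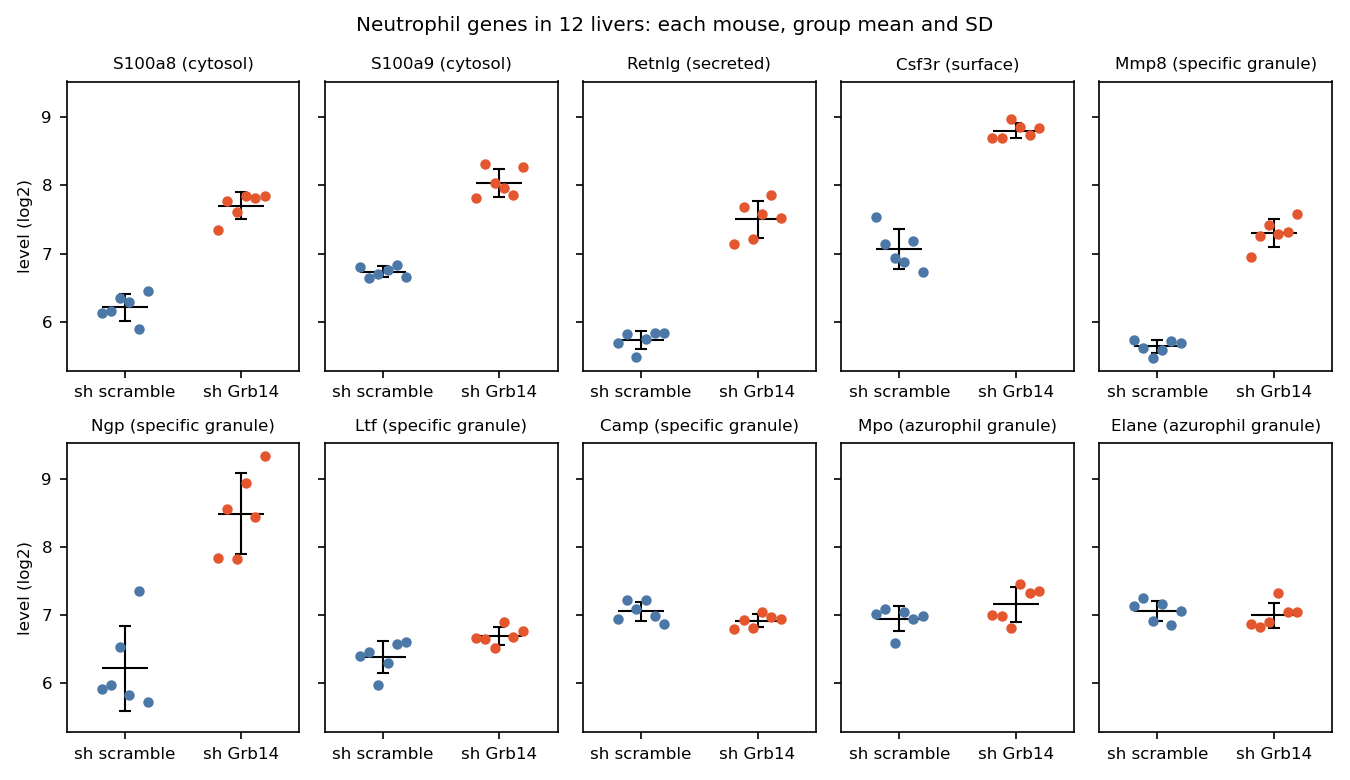
Levels (log2, vertical axis) of the 10 genes in sh scramble (blue) and sh Grb14 (red) livers, 1 point per mouse, with the group mean and SD as black bars. In S100a8, S100a9, Retnlg, Csf3r, Mmp8 and Ngp every red point lies above every blue point, while the points overlap in Ltf, Camp, Mpo and Elane. The axis is shared to show the changes at 1 scale, not to compare levels between genes.

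S100a8 and S100a9 encode the subunits of calprotectin, a calcium and zinc binding protein that makes up much of the neutrophil cytosol and is released in inflammation. Both rose. The level of S100a8 (probe set 10493831) ran from 5.90 to 6.45 in sh scramble livers (median 6.22) and from 7.34 to 7.84 in sh Grb14 livers (median 7.79). All 6 sh Grb14 livers lay above all sh scramble livers, and their lowest was mouse 1. The mean went from 6.21 ± 0.19 to 7.70 ± 0.20 (SD, n = 6 each), a change of 1.495 (SE 0.10), 2.82-fold (limma adjusted p = 9.42e-10). S100a9 (probe set 10499861) ran from 6.63 to 6.84 in sh scramble livers (median 6.73), the narrowest spread of the 10 genes in that group. In sh Grb14 livers it ran from 7.81 to 8.31 (median 7.999), with no overlap. Its mean went from 6.73 ± 0.082 to 8.04 ± 0.21 (SD, n = 6 each), a change of 1.31 (SE 0.084), 2.48-fold (limma adjusted p = 5.68e-10). For these and for the other 4 genes without overlap, the two-sided exact permutation test over mice gave p = 0.00216, the smallest that 6 against 6 mice allow.

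The S100a8 and S100a9 genes stand next to each other on chromosome 3 and rose together, so the 250 bases before each start are shown, from RefSeq, build GRCm38.p6. The windows are chr3:90668821-90669070 on the plus strand for S100a8 and chr3:90695722-90695971 on the minus strand for S100a9. Capitals mark matches to TTGCNNAA, a form of the C/EBP motif, or GAGGAA, a form of the core bound by PU.1, each on either strand, with 0 overlaps. C/EBP factors and PU.1 are the main transcription factors of granulocyte genes.
S100a8: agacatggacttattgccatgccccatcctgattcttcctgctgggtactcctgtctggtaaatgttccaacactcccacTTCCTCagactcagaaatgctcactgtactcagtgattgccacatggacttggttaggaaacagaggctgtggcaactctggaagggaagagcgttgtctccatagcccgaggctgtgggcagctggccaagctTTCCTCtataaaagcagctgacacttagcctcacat
S100a9: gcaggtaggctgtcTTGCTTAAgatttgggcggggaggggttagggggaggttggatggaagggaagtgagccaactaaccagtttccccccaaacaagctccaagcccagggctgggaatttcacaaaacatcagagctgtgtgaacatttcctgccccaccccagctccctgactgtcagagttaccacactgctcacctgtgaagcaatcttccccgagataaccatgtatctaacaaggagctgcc
S100a8 had 2 matches to GAGGAA, beginning 170 and 36 bases before the start, and S100a9 had 1 match to TTGCNNAA, beginning 236 bases before it. Over all 32851 windows of this length in the table, 9.6% held TTGCNNAA and 23.3% held GAGGAA. Among the 10 genes, 5 held the first and 6 the second. A match is a stretch of letters and not a measured site.

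Csf3r and Retnlg also rose. Csf3r encodes the receptor for G-CSF, the growth factor that drives neutrophil production and release. Its level (probe set 10508074) ran from 6.72 to 7.54 in sh scramble livers (median 7.04) and from 8.69 to 8.97 in sh Grb14 livers (median 8.79). The spread was wider in the sh scramble group, where mouse 1 was highest, and narrow in the other. The change was 1.74 (SE 0.11), 3.33-fold, from 7.07 ± 0.29 to 8.80 ± 0.11 (SD, n = 6 each; limma adjusted p = 3.56e-10). Retnlg encodes resistin-like gamma, a small secreted protein of myeloid cells. The Retnlg level (probe set 10436100) ran from 5.49 to 5.84 in sh scramble livers (median 5.78) and from 7.15 to 7.85 in sh Grb14 livers (median 7.55). The change was 1.77 (SE 0.11), 3.40-fold, from 5.73 ± 0.13 to 7.50 ± 0.27 (SD, n = 6 each; limma adjusted p = 3.07e-10). In 3 of 6 sh scramble livers Retnlg lay under the lower quartile of its array (5.69 to 5.83 over arrays). No detection call was made, so its fold can be understated.

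The specific granule genes did not move alike. Mmp8 encodes neutrophil collagenase, a metalloproteinase that cuts fibrillar collagen. Levels of Mmp8 (probe set 10583100) ran from 5.47 to 5.73 in sh scramble livers (median 5.65) and from 6.95 to 7.58 in sh Grb14 livers (median 7.30). It rose by 1.66 (SE 0.088), 3.17-fold, from 5.64 ± 0.099 to 7.30 ± 0.21 (SD, n = 6 each; limma adjusted p = 4.51e-11). In 5 of 6 sh scramble livers it lay under the lower quartile of its array, so this fold too can be understated.

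Ngp had the largest change of the 10 and the widest spread. It encodes neutrophilic granule protein, a relative of cathelicidin stored in specific granules. Its level (probe set 10589535) ran from 5.73 to 7.35 in sh scramble livers (median 5.94), with mouse 5 at 7.35 and mouse 3 at 6.52 above the others. In sh Grb14 livers it ran from 7.83 to 9.33 (median 8.49), so the lowest of these still lay above sh scramble mouse 5. The mean went from 6.22 ± 0.62 to 8.49 ± 0.60 (SD, n = 6 each), a change of 2.27 (SE 0.28), 4.82-fold (limma adjusted p = 2.30e-06). Without sh scramble mouse 5 the change was 2.495.

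Camp and Ltf had small changes, and 1 of them passed. Camp encodes the precursor of CRAMP, the mouse cathelicidin, a peptide that disrupts bacterial membranes. Camp levels (probe set 10597098) ran from 6.86 to 7.22 in sh scramble livers (median 7.03) and from 6.80 to 7.04 in sh Grb14 livers (median 6.93). The change was −0.14 (SE 0.072; 95% confidence interval −0.29 to 0.02) and did not pass (limma adjusted p = 0.108; range over alternatives 0.00299 to 0.229). It passed as lower with arrays centred on the median of the tested genes (−0.28) and without sh scramble mouse 6 (−0.17). Ltf encodes lactoferrin, an iron-binding antimicrobial protein also made by secretory epithelia. Its level (probe set 10589703) ran from 5.98 to 6.601 in sh scramble livers (median 6.43) and from 6.51 to 6.89 in sh Grb14 livers (median 6.67). The groups overlapped, with 5 of 6 sh Grb14 livers above the highest sh scramble liver. The rise of 0.31 (SE 0.096), 1.24-fold, passed (limma adjusted p = 0.0111; range over alternatives 0.00234 to 0.122; exact permutation p = 0.0108). With arrays centred on the median of the tested genes it was 0.16 and did not pass.

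Ngp, Camp and Ltf all lie on chromosome 9, though not next to each other, and code for proteins of the same granule, so their windows are set side by side. They are chr9:110419558-110419807 (plus strand) for Ngp, chr9:109849457-109849706 (minus strand) for Camp and chr9:111019042-111019291 (plus strand) for Ltf, build GRCm38.p6, with capitals as above.
Ngp: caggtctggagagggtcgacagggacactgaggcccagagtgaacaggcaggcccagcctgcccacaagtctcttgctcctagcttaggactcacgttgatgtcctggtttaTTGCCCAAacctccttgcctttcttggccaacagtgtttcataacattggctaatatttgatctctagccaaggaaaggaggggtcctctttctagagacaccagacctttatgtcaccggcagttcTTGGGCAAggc
Camp: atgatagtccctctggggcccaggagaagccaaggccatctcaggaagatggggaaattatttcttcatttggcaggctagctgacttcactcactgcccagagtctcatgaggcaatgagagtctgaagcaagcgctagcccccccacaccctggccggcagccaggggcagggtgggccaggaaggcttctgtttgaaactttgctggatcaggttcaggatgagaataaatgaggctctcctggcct
Ltf: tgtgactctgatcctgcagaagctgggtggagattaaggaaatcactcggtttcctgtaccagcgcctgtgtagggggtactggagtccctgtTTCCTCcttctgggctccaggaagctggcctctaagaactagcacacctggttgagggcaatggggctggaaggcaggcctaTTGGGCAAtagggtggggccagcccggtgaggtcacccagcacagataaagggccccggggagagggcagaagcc
Ngp held 2 matches to TTGCNNAA, beginning 138 and 11 bases before the start, and none to GAGGAA. Ltf held 1 of each, beginning 75 and 157 bases before the start, and Camp held neither within this window.

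The azurophil granule genes Mpo and Elane did not pass the test. Mpo encodes myeloperoxidase, which makes hypochlorous acid. Its level (probe set 10380174) ran from 6.58 to 7.09 in sh scramble livers (median 7.00) and from 6.81 to 7.46 in sh Grb14 livers (median 7.16). The groups overlapped, with sh scramble mouse 3 low and 3 of 6 sh Grb14 livers above the highest sh scramble liver. The change was 0.21 (SE 0.11; 95% confidence interval −0.02 to 0.45; limma adjusted p = 0.0999; range over alternatives 0.0303 to 0.578). Without sh Grb14 mouse 3 it was 0.28 and passed. Elane encodes neutrophil elastase, a serine protease, and stands next to Prtn3, which encodes the related proteinase 3. Elane levels (probe set 10364535) ran from 6.85 to 7.25 in sh scramble livers (median 7.10) and from 6.83 to 7.32 in sh Grb14 livers (median 6.97), a near complete overlap. The change was −0.06 (SE 0.089; 95% confidence interval −0.25 to 0.13; limma adjusted p = 0.542; range over alternatives 0.0341 to 0.816). It passed as lower, at −0.21, only with arrays centred on the median of the tested genes.

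The sizes of these changes were then compared between genes, as the log2 difference of 2 genes within each mouse, in two-sided exact permutation tests over all 45 pairs. After Benjamini-Hochberg adjustment 32 pairs changed unequally. The test compares the signals of probe sets, each with its own response, and a low signal can understate a change. The differences below therefore need not equal those between the transcripts. The 24 pairs that join 1 of the 6 genes without overlap to 1 of the other 4 all did (adjusted exact p = 0.00406 each). That split follows the genes' own changes, so the count describes the size of the gap. Within the same granule, Ngp rose by 2.40 more than Camp and by 1.96 more than Ltf. Mmp8 rose by 1.80 more than Camp. Ltf and Camp differed from each other by 0.44, with Ltf the higher (adjusted exact p = 0.0139). Among the 6 genes without overlap 4 of 15 pairs differed, all of them with S100a9. Its change was smaller than that of Mmp8 by 0.36, of Csf3r by 0.43, of Retnlg by 0.46 and of Ngp by 0.96 (adjusted exact p = 0.0108, 0.0202, 0.0108 and 0.0274). S100a8 and S100a9 differed by 0.19, which did not pass (adjusted exact p = 0.230). Mpo and Elane differed by 0.28, with Mpo the higher (adjusted exact p = 0.0108). Between the azurophil genes and the 2 specific granule genes with small changes, results were mixed. The change of Mpo less that of Ltf was −0.09, and Elane less Camp was 0.07, and neither passed (adjusted exact p = 0.290 and 0.413). Elane less Ltf was −0.37 and Mpo less Camp was 0.35, and both passed (adjusted exact p = 0.0220 each).

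**Figure D2:**
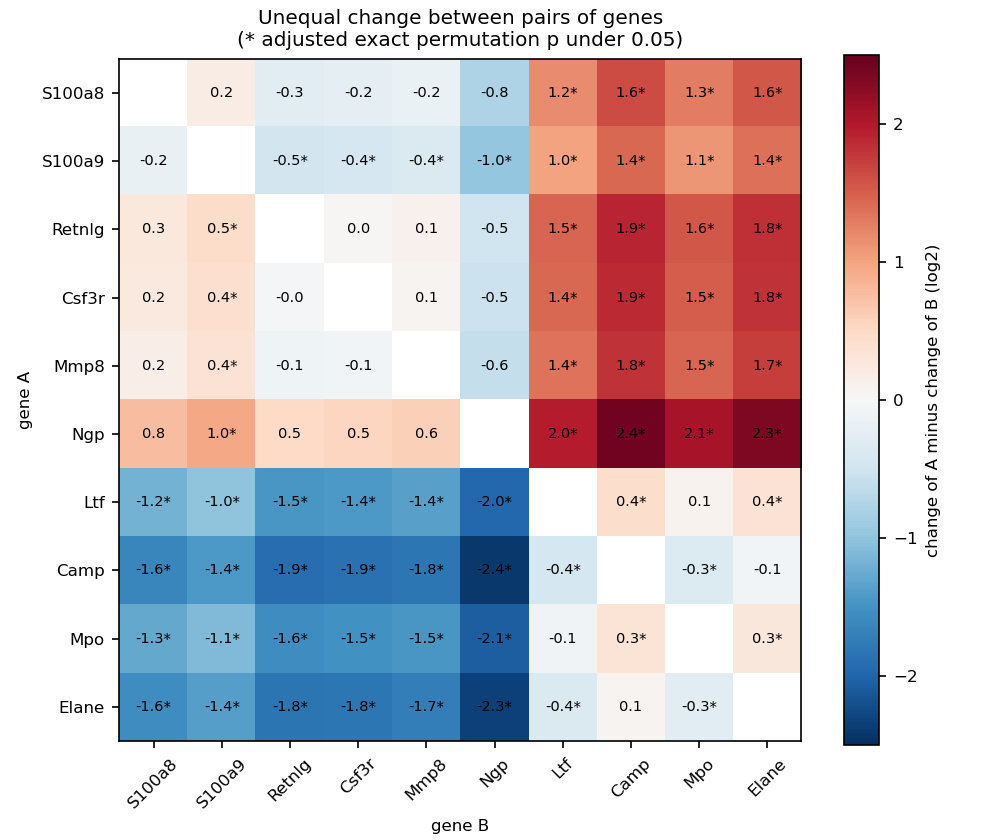
Difference between the change of gene A (row) and gene B (column), in log2 units, for the 45 pairs, each shown in both orders. Red cells mean that A changed more than B, and stars mark an adjusted exact permutation p under 0.05. The block that joins S100a8, S100a9, Retnlg, Csf3r, Mmp8 and Ngp to Ltf, Camp, Mpo and Elane is starred throughout, and most cells within the first 6 genes are not.

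The mice of a group also differed among themselves. Within the sh Grb14 group mouse 1 was the lowest of 6 for 6 genes, S100a8, S100a9, Mmp8, Csf3r, Retnlg and Camp. Mouse 4 was the highest for 5, S100a8, Elane, Mpo, Camp and Ltf. In the sh scramble group mouse 3 was the lowest for 4 genes and mouse 5 the highest for 3, S100a9, Retnlg and Ngp. Relations between genes across the 6 mice of a group were tested for 7 pairs in each group, 14 in all. None passed after adjustment, and 3 had an unadjusted exact permutation p under 0.05 for r. The highest r was between Elane and Mpo in sh Grb14 livers, at 0.85 (exact permutation p = 0.0306, adjusted p = 0.179; Spearman's rho 0.77, exact permutation p = 0.103, adjusted p = 0.288; r = 0.91 without the 2 mice farthest from the median). In sh scramble livers the same pair had r = 0.68 (exact permutation p = 0.106, adjusted p = 0.228; rho 0.94, exact permutation p = 0.0167, adjusted p = 0.233; r = 0.99 without those 2 mice). S100a8 and S100a9 had r = 0.51 in sh Grb14 livers and −0.69 in sh scramble livers (exact permutation p = 0.292 and 0.131, adjusted p = 0.454 and 0.228). Their rho was 0.26 and −0.66 (exact permutation p = 0.658 and 0.175, adjusted p = 0.714 and 0.350), and r without 2 mice was −0.35 and −0.11. At 6 mice per group these data do not show that the calprotectin genes vary together from mouse to mouse.

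**Figure D3:**
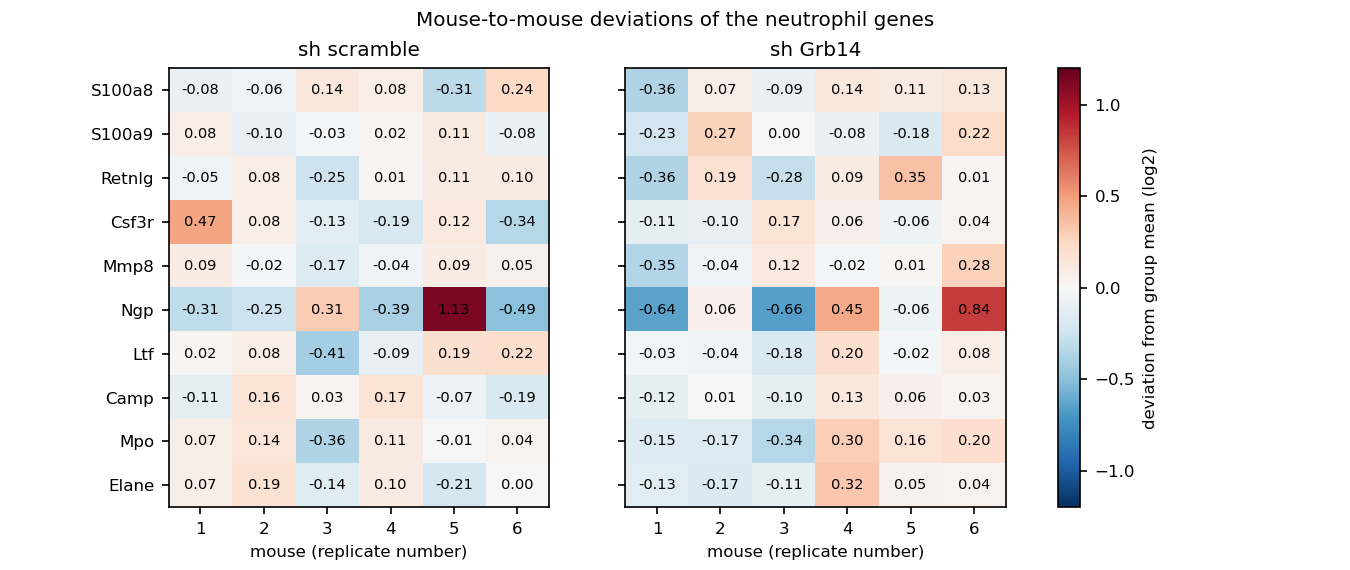
Deviation of each mouse from its group mean (log2; red above, blue below) for the 10 genes, with mice 1 to 6 of each group as columns. Ngp has the largest deviations, with 1.13 in sh scramble mouse 5 and 0.84 in sh Grb14 mouse 6, and most S100a9 and Camp cells are pale.

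The genes whose deviations from the group means were most like those of each of the 10 were looked up over the 12 arrays, among 19937 other genes. As the top of so many values these are a description only. The top 3 for Csf3r were Myo1g, Galnt12 and Elmo1 (r of 0.90 to 0.93), of which Myo1g encodes a myosin of blood cells and Elmo1 a protein of phagocyte engulfment and movement. Those for Elane were Prss16, Zfp689 and Mmp25 (r of 0.92 to 0.93). Mmp25 encodes a membrane metalloproteinase of neutrophils. Those for S100a9 were Ppbp, a platelet chemokine gene, Suox and Mbl1 (r of 0.87 to 0.90), and those for Mmp8 were Alb, Gpr84 and Ly6a2 (r of 0.84 to 0.86). The other 6 genes had Nhs, 1700016C15Rik and Slco6b1 (S100a8), Wdr64, Ofcc1 and Crybb3 (Retnlg), Olfr71, Il23r and Mafa (Mpo), Cct6b, 4930523C07Rik and Olfr228 (Ngp), Mir380, Odf3b and Gm4792 (Camp), and Frmd6, Gm6937 and Ccdc151 (Ltf). Of the 30 genes, 3 stand in any of the gene lists used here, Alb, Mmp25 and Ppbp, and no member of the 10 was among another's top 3.

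Counts for the gene lists are to be read against the 25.8% of all genes that rose and the 39.5% that fell, and a list with shares near these shows nothing of its own. Many genes stand in several lists, so the counts are not independent of each other. Of 29 other measured neutrophil markers beyond the 10, 17 rose, 4 fell and 8 missed the threshold, with a median change of 0.42 against −0.10 for all genes. Cxcr2, the receptor that guides neutrophils to CXC chemokines, rose by 2.36 (SE 0.11), from 5.22 ± 0.22 to 7.58 ± 0.21 (SD, n = 6 each; limma adjusted p = 7.77e-12). Its sh scramble values all lay under the arrays' lower quartiles. Ly6g, the surface antigen used to define mouse neutrophils, rose by 1.13 (SE 0.12), from 5.81 ± 0.23 to 6.94 ± 0.24 (SD, n = 6 each), without overlap. Its probe set may share signal with relatives in the Ly6 family. Cd177, another neutrophil surface gene, had a change of 0.08 (SE 0.083) and did not pass. Lcn2, which encodes the iron-carrier trap lipocalin 2 and is also made by hepatocytes, rose by 3.54 (SE 0.13), 11.6-fold. Chil3, a chitinase-like gene also expressed in macrophages and with a close relative, rose by 2.89 (SE 0.14). Clec4e, a receptor for mycobacterial glycolipid, rose by 2.78 (SE 0.15). In sh scramble livers Chil3 lay under the lower quartile on 6 of 6 arrays and Clec4e on 4 of 6, so both folds can be understated. Asprv1 had a change of 0.17 and did not pass. The 4 that fell were Wfdc21, Lrg1, G0s2 and Ltb4r1, and they were named after their values were seen. Wfdc21 fell from 10.67 to 9.04 and Lrg1 from 11.99 to 11.67, and which liver cells gave these high signals was not tested. Lrg1 and Ltb4r1 no longer passed with arrays quantile-normalised again. Stfa2 and Stfa3, stefins of mouse neutrophils, lay under the lower quartile on all 12 arrays.

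Of 8 measured azurophil genes, Mpo and Elane included, 2 rose, a share near the 25.8% of all genes that rose, and 6 did not pass. Their median change was 0.08. The 2 that rose were Cd63, a membrane protein of lysosomes in many cells, by 2.45 (SE 0.14), and Ctsc, the protease that activates granule proteases and is also broadly expressed, by 1.15 (SE 0.074). Prtn3, Ctsg, Prss57 and Bpi, whose products are largely confined to myeloid granules, had changes of 0.11, 0.05, −0.06 and −0.07 that did not pass (limma adjusted p = 0.191, 0.647, 0.412 and 0.418). With arrays centred on the median of the tested genes Prss57 and Bpi passed as lower. Prtn3, Ctsg, Prss57 and Bpi had means over 12 arrays of 6.84, 6.14, 5.76 and 5.83, under every array median. Little signal and no change cannot be told apart here. Of 15 genes of specific and gelatinase granules, 4 of the 10 included, 12 rose, 2 fell and 1 missed the threshold, with a median change of 1.08. Lcn2, Chil3 and Ngp led that list, and the 2 that fell were Arg1, a urea cycle enzyme of hepatocytes, and Olfm4. The change of Olfm4 was −0.28, with overlap (limma adjusted p = 0.0416; exact permutation p = 0.0649), and no longer passed with arrays quantile-normalised again. The number of lower genes in this list moved in 7 of the 19 alternatives. Among those that rose, Lyz2 also stands in the monocyte and macrophage list, and Cybb and Cyba in the phagocyte oxidase list. Hp rose only by 0.21, from 12.90 to 13.11, and did not pass with arrays centred on the median of the tested genes. Both granule lists thus hold genes of other cells, so their counts do not compare granule classes alone. Arg1, Olfm4, Lyz2 and Hp were named after their values were seen.

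**Figure D4:**
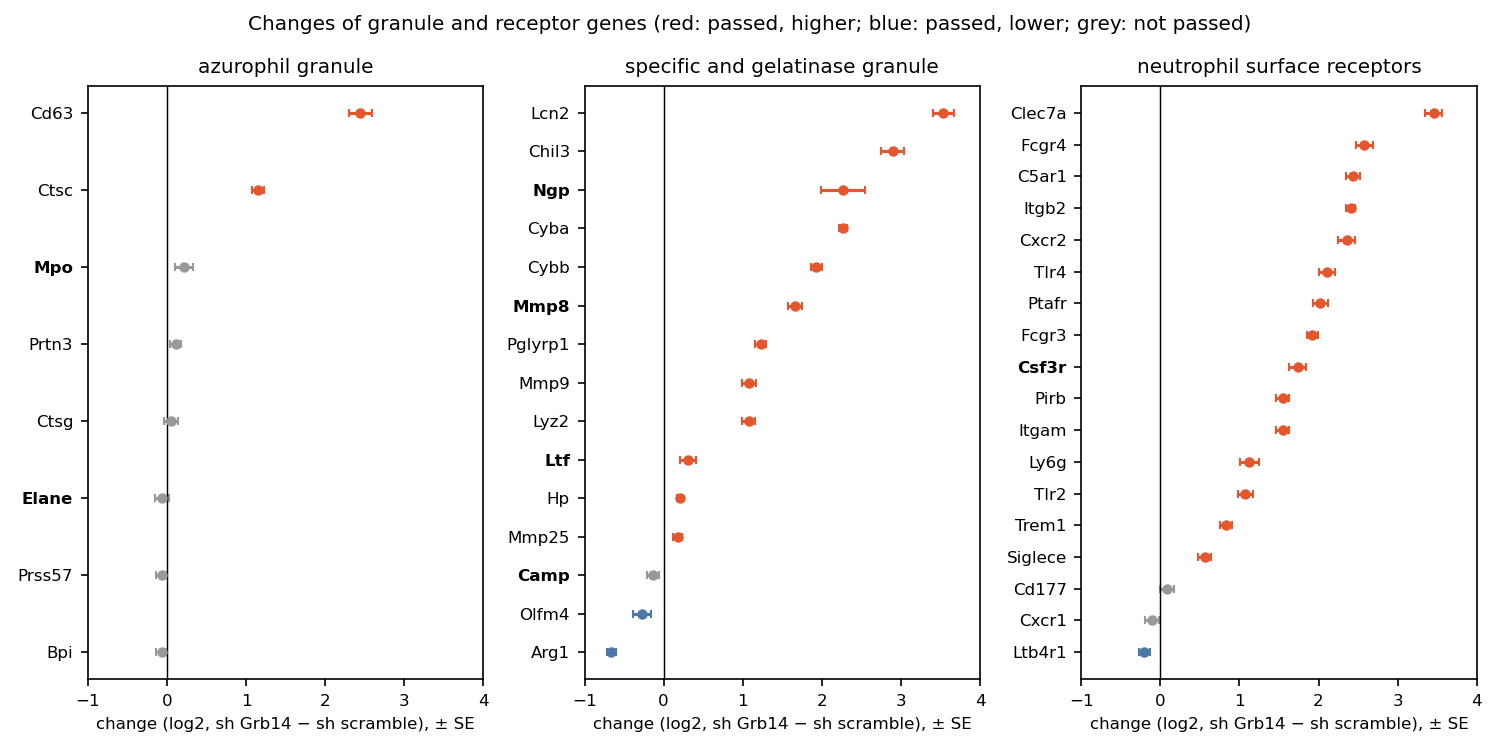
Change (log2, sh Grb14 minus sh scramble) with its SE for the azurophil granule, specific and gelatinase granule and surface receptor lists; red genes passed as higher, blue as lower, grey did not pass, and genes of the 10 are in bold. In the azurophil panel Cd63 and Ctsc are red and the other 6 are grey near 0, whereas most receptor genes lie between 1 and 4.

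Surface receptors of neutrophils, most of them shared with monocytes and macrophages, mostly rose. Of 18 measured receptors, Csf3r included, 15 rose and 1, Ltb4r1, fell. The median change was 1.64. Clec7a, the beta-glucan receptor, rose by 3.46 (SE 0.11), the Fc receptor gene Fcgr4 by 2.58 (SE 0.11) and C5ar1, the receptor for the complement fragment C5a, by 2.43 (SE 0.089). Cxcr1 (−0.10) and Cd177 (0.08) did not pass. Of the 7 measured genes of the phagocyte NADPH oxidase, which makes superoxide, 6 rose and 1 did not pass, with a median change of 1.21. Cyba rose by 2.27 (SE 0.052), Rac2 by 1.94 (SE 0.066) and Cybb by 1.93 (SE 0.070), while Rap1a had a change of 0.01. Among the receptors and partners known to bind S100A8 and S100A9, 4 of 6 rose and 2 did not pass. Tlr4 rose by 2.11 (SE 0.10), Cd36 by 2.05 (SE 0.12) and Cd14 by 1.86 (SE 0.093), while Ly96 (−0.17) and Ager (−0.07) did not pass.

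Ligands and signals upstream of neutrophils moved both ways. Of 23 measured chemoattractant and growth factor genes, 11 rose and 5 fell, while 7 did not pass. Their median change was 0.13. Ccl3, a macrophage inflammatory chemokine, rose by 3.83 (SE 0.078), Alox5ap, needed for leukotriene synthesis, by 2.06 (SE 0.071), and Kitl, stem cell factor, by 1.997 (SE 0.13). Pf4 (0.13) and Lta4h (0.01) did not pass. Csf3, which encodes G-CSF, had a change of −0.21 (SE 0.052) and passed as lower, where the median change of all genes was −0.10. Its means of 6.84 in sh scramble and 6.64 in sh Grb14 livers lay under every array median (7.06 to 7.17). Without a detection call, this small change says little about the transcript. Cxcl2, a ligand of Cxcr2 under the lower quartile in 4 of 6 sh scramble livers, rose by 1.05 (SE 0.15), and Cxcl1, another, by 0.32 (SE 0.093), but Cxcl1 no longer passed with arrays centred on the median of the tested genes or quantile-normalised again. Of the other genes that fell, Cxcl12 changed by −1.30 (SE 0.073), from 10.86 to 9.56, and Hc by −0.72 (SE 0.051), from 12.84 to 12.12, both without overlap. Il17a and Il17f, with means under every array median, changed by −0.18 and −0.31. Csf3, Cxcl1, Cxcl2, Cxcl12, Hc, Il17a and Il17f were named after their values were seen. Of 12 measured G-CSF signalling genes, Csf3r included, 9 rose and 2 fell, with a median change of 0.45, and 1 did not pass. Gab2, a docking protein, rose by 1.79 (SE 0.047) and Jak2, the receptor's kinase, by 0.94 (SE 0.056), while Stat5a had a change of −0.08 and did not pass.

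Of 14 granulocyte transcription factor genes 6 rose and 3 fell, while 5 did not pass. Their median change was 0.11. Irf8, a factor of monocytes and dendritic cells that restrains granulocyte fate, rose by 2.35 (SE 0.047), and Spi1, which encodes PU.1, by 2.24 (SE 0.081). Cebpa, which starts the granulocyte program and is also a main factor of hepatocytes, fell by 1.71 (SE 0.055), from 11.66 to 9.94. Cebpb (−0.16) and Rara (−0.11) did not pass, and both passed as lower with arrays centred on the median of the tested genes or quantile-normalised again. Cebpe, the factor of specific granule genes, fell by 0.39 (SE 0.055), and Gfi1 had a change of 0.03, both named after their values were seen. Of 12 measured inhibitors of neutrophil proteases 6 rose, 4 fell and 2 did not pass. Timp1, an inhibitor of metalloproteinases, rose by 2.84 (SE 0.11) and Serpinb6b by 1.82 (SE 0.090). Serpina1d, an alpha-1-antitrypsin gene whose probe set may share signal with its relatives, fell by 1.34 (SE 0.11). Serpinb1a (0.02) and A2m (0.14) did not pass.

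**Figure D5:**
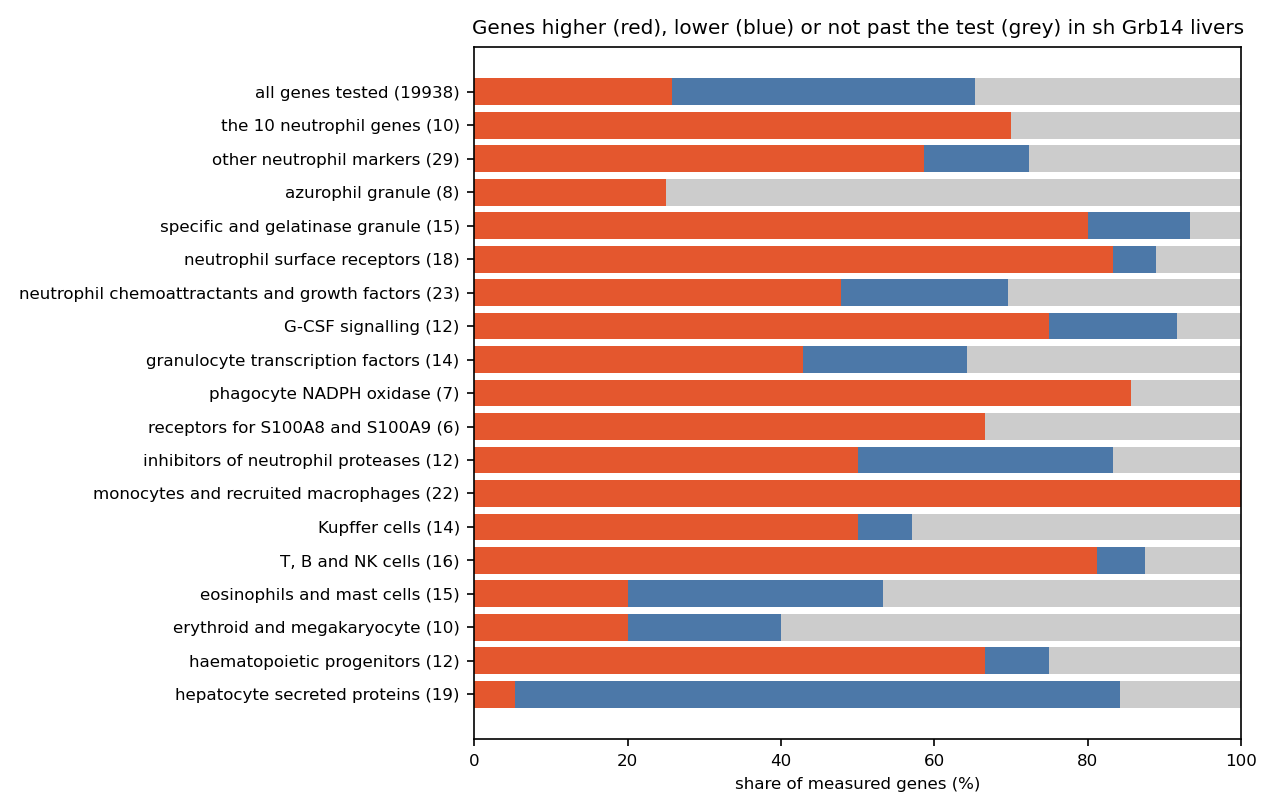
Share of the measured genes of each list (number in parentheses) that were higher (red), lower (blue) or did not pass the test (grey) in sh Grb14 livers, with all 19938 genes in the top bar. Monocyte and macrophage markers are red throughout, and the azurophil list is mostly grey.

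Markers of other cells moved in the same livers, and their part in the changes of the 10 genes was not tested. Of 22 measured monocyte and recruited macrophage markers 22 rose, with a median change of 1.80. The mean level of that list ran from 8.22 to 8.53 in sh scramble livers and from 10.04 to 10.33 in sh Grb14 livers, and 0 of its genes lay under the lower quartile on all arrays. Gpnmb, Ccl6 and Lgals3 led with changes of 4.79 (SE 0.15), 2.92 (SE 0.13) and 2.80 (SE 0.076). Among 14 Kupffer cell markers 7 rose, 1 fell and 6 did not pass (list mean 9.28 to 9.53, then 9.89 to 10.02), and the defining genes Clec4f (−0.06) and Vsig4 (0.22) did not pass. Cd5l rose by 1.79 and Il18bp by 1.74. C6 fell by 1.60, from 12.19 to 10.59, and which liver cells gave its high signal was not tested. Among 16 T, B and NK cell markers 13 rose, 1 fell and 2 did not pass (list mean 6.67 to 6.77, then 7.86 to 8.03). Gzmb rose by 3.46, Nkg7 by 3.24 and Cd3g by 2.95, and Ncr1 (0.16) and Klrb1c (0.05) did not pass. Klrb1c lay under the lower quartile on all 12 arrays, so its value says little about NK cells.

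Among 15 eosinophil and mast cell markers 3 rose, 5 fell and 7 missed the threshold, with list means of 6.04 to 6.20 in sh scramble livers and 6.05 to 6.20 in sh Grb14 livers. The eosinophil granule genes Prg2 and Prg3 had changes of −0.14 each that did not pass. Ccr3 fell by 0.98, Fcer1a by 0.32 and Hpgds rose by 2.003. Il5ra, Cpa3, Mcpt4, Fcer1a and Ms4a2 lay under the lower quartile on all 12 arrays. Among 12 measured progenitor markers 8 rose, 1 fell and 3 did not pass (list mean 7.01 to 7.07, then 7.43 to 7.65). Cd93 and Cd34, which endothelial cells also express, rose by 1.83 and 1.08, and Ctla2a, under the lower quartile in 6 of 6 sh scramble livers, by 1.07. Gata2 (−0.09) and Vpreb1 (−0.15) did not pass. Ms4a3, a marker of granulocyte and monocyte precursors, had a change of −0.01 and was named after its values were seen. Among 10 erythroid and megakaryocyte markers 2 rose, 2 fell and 6 did not pass (list mean 7.37 to 7.49, then 7.30 to 7.55). Alas2 fell by 1.73, Slc4a1 rose by 1.28 and Ppbp by 0.68, and Gp9 (−0.16) and Itga2b (0.09) did not pass. Genes that define liver were high: Alb was at 13.92 in sh scramble and 13.95 in sh Grb14 livers, and Trf at 13.70 and 13.71. The highest value of any probe set was 14.24, and so near the top of the scale a change can be understated. Of 19 hepatocyte secreted protein genes 1 rose, 15 fell and 3 missed the threshold, with changes of −1.56 in Itih1, −0.98 in Apoa2 and −0.51 in Vtn. Among the list genes named above as not passing, Cxcr1, Ly96, Ager, Stat5a, Rap1a, Prg2, Prg3, Gp9, Gata2, Vpreb1, Ms4a3, Alb and Trf also passed as lower with arrays centred on the median of the tested genes, and Pf4, Ncr1 and Klrb1c passed as higher with arrays quantile-normalised again.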

How the data were processed

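Affymetrix whole-transcript arrays took 100 ng of total RNA each, per the labels' protocols. The deposited table holds log2 values for 35556 probe sets, and the submitters' processing notes name RMA and Partek without version or role. The sources used here do not give the chip description file, settings, probe genome build, scan dates or batches. Of the probe sets 21789 had 1 gene symbol in the platform annotation, and the one with the highest mean over 12 arrays stood for each of 19938 genes. These were fitted with limma 3.58.1 in R 4.3.3 (lmFit, eBayes with intensity trend), all 12 arrays, no covariate and no filter, with Benjamini-Hochberg adjustment over all genes. The fit was tested on simulated data; exact permutation tests, in Python 3.11.15, used all 924 assignments of 12 mice.

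The groups come from the treatment label, and the labels give no replicate number that pairs mice. The labels number the mice consecutively, the sh scramble group first, and the mouse numbers used here restart in each group in that order. The members and the 17 gene lists were chosen with earlier results of these data known, so lists are described by counts and medians without a test. Named beside the members were, in each list, the 3 largest changes past the test without overlap and up to 2 of those that did not pass, taken by highest mean level among them, with Ly6g, Cd177 and Cxcr2 always, and 3 genes of like deviations per member. Genes outside that rule are marked as named after their values were seen, apart from those listed as lying under a lower quartile and the azurophil genes, which are given whole. List genes without a single-symbol probe set were not analysed here. Promoter windows come from RefSeq (GRCm38.p6) and all 10 members matched. Alternatives were other variance priors, a filter on low genes, other scalings, mean probe sets and leaving out each mouse.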

Additional observations from a re-analysis of the deposited data

Results flagged for a closer look

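In a search for single mice far from the rest of their group, 20 groups of 6 values were examined (the 10 genes in each of the 2 groups), and 1 stood out. Mpo in sh scramble mouse 3 was 6.58, below the next value of 6.94, and this gap made up 0.703 of the group's range, above the critical value of 0.625. Chance gives about 1 such group in 20.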

How the results depend on the processing

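The changes of S100a8, S100a9, Mmp8, Csf3r, Retnlg and Ngp kept their direction and passed limma's test in all 19 alternatives, with changes of 1.35 to 1.57, 1.16 to 1.36, 1.52 to 1.73, 1.59 to 1.83, 1.62 to 1.84 and 2.10 to 2.495. Centring each array on the median of the tested genes, an alternative chosen after seeing the data, made Elane (−0.21) and Camp (−0.28) pass as lower and Ltf (0.16) not pass. It shifts every change by −0.15. The number of the 10 genes lower was then 2, against 0 as reported, and the number higher 6 against 7. With 1 mouse left out, the change ranged from 0.14 to 0.28 for Mpo, from −0.17 to −0.10 for Camp, from −0.13 to −0.03 for Elane and from 0.23 to 0.35 for Ltf. Mpo passed only without sh Grb14 mouse 3 and Camp only without sh scramble mouse 6, so the number of genes lower ranged from 0 to 1. The cause was not tested. Unequal pairs numbered 31 to 36 over 16 alternatives, against 32.

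Of 34 counts of higher or lower genes in the lists, 12 moved by over 1.5 times with that centring, 9 with arrays quantile-normalised again and at most 2 with each other setting on all mice. With it the lower counts went to 3 azurophil genes (from 0), 2 receptors (from 1), 8 chemoattractant and growth factor genes (from 5), 5 transcription factors (from 3) and 10 eosinophil and mast cell genes (from 5). Over all genes it gave 3859 higher and 12943 lower, against 5144 and 7868. With each array centred on the median of all its probe sets, r in sh scramble livers went from −0.10 to 0.12 for Ngp with Camp and from -0.0049 to 0.11 for Ngp with Ltf, neither passing. No paired analysis was possible because the labels give no replicate numbers shared between the groups. No detection call exists here, so sh scramble levels near the bottom of the scale limit the folds of Mmp8, Retnlg, Cxcr2, Chil3, Clec4e, Cxcl2 and Ctla2a. The same lack limits what a change near 0 means for genes with low signal.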
